A study of Mus musculus with 6 samples.

Results

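The genes described here are 43 mouse genes of ribosome biogenesis, chosen by name from knowledge of the pathway. All 43 were found by symbol in both deposited expression tables, out of 16799 genes present in both, and all 43 were among the 11050 genes tested. Ribosomes are assembled in the nucleolus. RNA polymerase I transcribes the long precursor of ribosomal RNA, small nucleolar ribonucleoproteins (snoRNPs) mark it for methylation and pseudouridylation, and large sets of assembly factors fold, cut and export the small and the large subunit. The transcription factor MYC is known to raise the output of this pathway in growing blood cells, and Myc is itself a known Notch target in T-cell leukaemia.

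The RNA came from BaF3, a mouse cell line that depends on interleukin-3, grown in 10% serum with 2 ng/mL interleukin-3, nucleofected with plasmid and sorted 24 h later. The con group carried pmax-Clover, which encodes a green fluorescent protein, the ICN group pmax-Clover-ICN, ICN being the usual name for the intracellular part of NOTCH1, and the CTdel group pmax-Clover-CTdel. The series' design text speaks of a mutated ICN plasmid where the labels have CTdel. Each group had 2 libraries, numbered 1 and 2, and each number was deposited as a table of its own. Whether the replicates were separate cultures is not stated, so p-values measure only the spread between these libraries. The sources used here do not say what CTdel stands for, which species the ICN sequence is from, or which signal the cells were sorted on. No control plasmid carried an unrelated insert. In the comparisons with con, an effect of ICN or CTdel and an effect of the added plasmid sequence therefore cannot be told apart.

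Values are FPKM, fragments per kilobase of transcript and scaled to the mapped fragments of the library, so they are shares of a library. FPKM summed to 489693 to 507894 per library, and the lowest nonzero values of small RNA genes gave relative depths of 0.963 to 1.08, with con replicate 1 set to 1. A value above 0 was given for 14951 and 14981 genes in con, 16413 and 16946 in ICN, and 15822 and 15599 in CTdel. The labels call BaF3 a pro-B line. Of 18 pro-B and interleukin-3 receptor markers, 15 were in both tables, and 9 or 10 of these stood below FPKM 1 in each library, Ebf1 and Igll1 among them. The receptor gene Csf2rb stood at 166 to 297. T-cell markers (5 of 7 in both tables) summed to at most 2.23. For Notch1, the transfected gene, replicates 1 and 2 gave FPKM 0.89 and 1.72 with con, 190.0 and 888 with ICN, and 84.9 and 25.4 with CTdel.

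Promoter sequence is shown first because the members are often described as MYC targets, and MYC with its partner MAX binds the E-box CACGTG. RefSeq promoter windows (GRCm38.p6, 250 bases before to 50 after a start) were available for 38 members, and not for Npm1, Fbl, Rrp12, Rrs1 and Bop1. CACGTG, which reads alike on both strands, was present in 6 of 38 (15.8%), against 1051 of 8735 tested genes and 8.09% of 27025 genes with such a window. The 30 bases around it are given here with the motif in capitals, 5′ to 3′ on the gene's strand.
Nop2 (chr6:125131811-125131840, plus strand): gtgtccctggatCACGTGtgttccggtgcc
Pes1 (chr11:3963965-3963994, plus strand): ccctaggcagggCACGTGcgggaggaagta
Wdr43 (chr17:71616220-71616249, plus strand): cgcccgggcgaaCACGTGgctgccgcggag
Tsr1 (chr11:74898092-74898121, plus strand): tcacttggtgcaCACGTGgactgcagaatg
Utp20 (chr10:88826765-88826794, minus strand): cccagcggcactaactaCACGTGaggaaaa
Mybbp1a (chr11:72441347-72441376, plus strand): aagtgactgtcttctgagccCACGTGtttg
In Nop2 the motif began 60 bases before the start, and in the other 5 it lay 3 to 41 bases past it.

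The member with the lowest mean change in ICN, Rrp1b, had no CACGTG in its window, nor did Gar1. They are among 32 of 38 members with a window but no match. The 250 bases before the start are shown for Rrp1b, for Nop2 and for Pes1, the member with the smallest p in CTdel, whose motif lies just past the end of the stretch printed.
Rrp1b (chr17:32035912-32036161, plus strand): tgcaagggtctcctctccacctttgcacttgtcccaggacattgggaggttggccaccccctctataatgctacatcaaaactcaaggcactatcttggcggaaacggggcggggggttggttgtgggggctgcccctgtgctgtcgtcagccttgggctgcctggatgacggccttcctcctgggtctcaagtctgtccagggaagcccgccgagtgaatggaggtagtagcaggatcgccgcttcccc
Nop2 (chr6:125131633-125131882, plus strand): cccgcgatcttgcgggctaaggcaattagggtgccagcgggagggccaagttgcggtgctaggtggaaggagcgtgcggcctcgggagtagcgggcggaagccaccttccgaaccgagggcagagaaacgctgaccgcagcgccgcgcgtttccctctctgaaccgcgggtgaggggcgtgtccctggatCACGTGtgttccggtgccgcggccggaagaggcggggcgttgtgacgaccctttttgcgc
Pes1 (chr11:3963725-3963974, plus strand): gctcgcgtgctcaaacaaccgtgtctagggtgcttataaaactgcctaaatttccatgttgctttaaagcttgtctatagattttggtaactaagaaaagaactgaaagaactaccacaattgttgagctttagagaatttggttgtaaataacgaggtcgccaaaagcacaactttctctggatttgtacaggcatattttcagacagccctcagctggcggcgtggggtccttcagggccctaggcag
A pair of other motifs was searched on both strands after the windows had been seen. GGGCGG, the core bound by Sp1, was in 29 of 38 members (76.3%) and in 68.2% of tested genes. CCGGAAGT, a core bound by Ets factors, was in 10 of 38 (26.3%) and in 10.3% of tested genes, and matches of these motifs may share bases. The 10 were Polr1c, Polr1e, Nhp2, Gar1, Heatr1, Tsr1, Ebna1bp2, Ppan, Noc2l and Nip7. These matches describe the letters of the windows and show no binding.

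The members were well expressed. Their mean FPKM in con ran from 10.8 (Polr1e) to 1863 (Npm1) with a median of 61.7, against a median of 14.0 over all tested genes, and 41 of 43 had at least 20. Npm1, which encodes nucleophosmin, the most abundant nucleolar shuttle protein and assembly chaperone, was the highest member in all 6 libraries. The lowest was Polr1e in both con libraries and in ICN replicate 2, Bysl in ICN replicate 1 and Utp20 in both CTdel libraries. Npm1 has many processed pseudogenes, and the sources used here do not say how shared reads were assigned, so its level is uncertain to that extent.

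**Figure D1:**
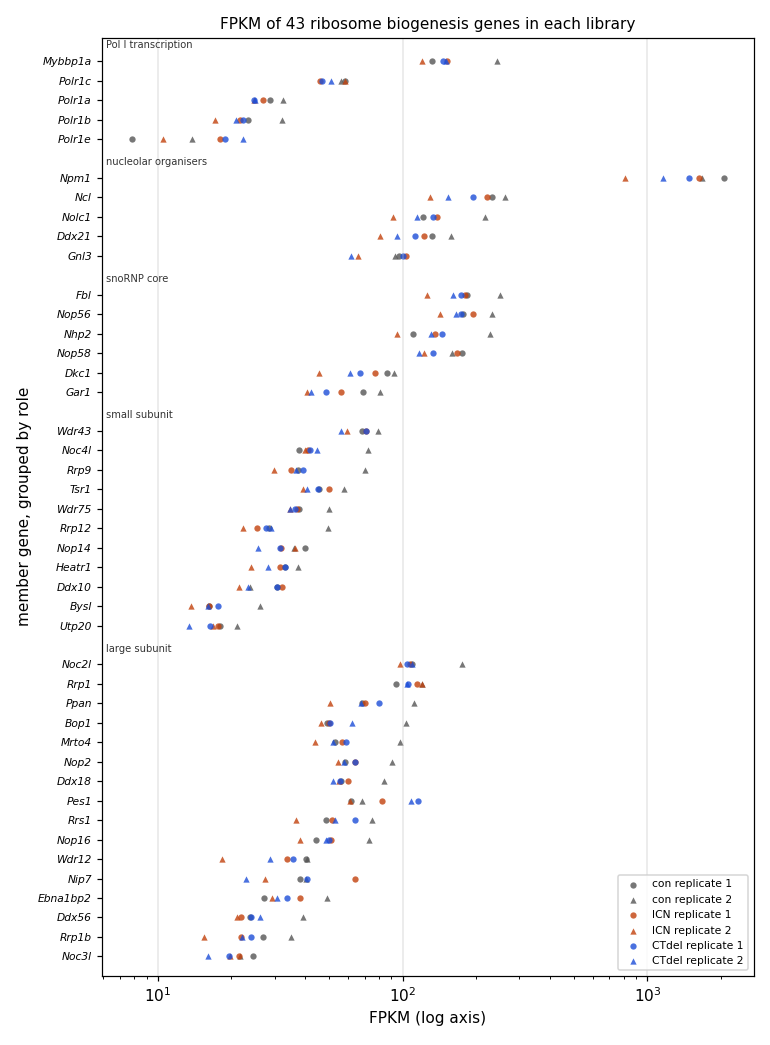
FPKM (log axis) of each of the 43 genes in the 6 libraries, grouped by role and ordered by mean con level. Colours mark the plasmid group, and circles and triangles mark replicates 1 and 2. For most genes the grey triangle, con replicate 2, lies to the right of the other symbols and the orange triangle, ICN replicate 2, to the left.

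In replicate 1 the members as a group stood at nearly the same level in all 3 plasmid groups, and in replicate 2 they stood lower with both forms of Notch1 than with Clover alone. Their median FPKM was 49.2 in con, 51.6 in ICN and 50.2 in CTdel for replicate 1, and 72.6, 40.7 and 50.8 for replicate 2. Changes are differences in log2(FPKM + 1) within a table. The members' median change in ICN was 0.01 in replicate 1 and −0.85 in replicate 2, and their mean change over both tables had a median of −0.36. In CTdel these values were 0.00, −0.61 and −0.28. Over all tested genes the median of the mean change was 0.00 in ICN and −0.06 in CTdel.

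Of the 43 members, 21 had a lower value than con in replicate 1 with ICN, against 48.0% of tested genes, and 41 did in replicate 2, against 48.4%. With CTdel the counts were also 21 and 41, against 57.0% and 52.3% of tested genes. Lower values in both tables were seen for 19 members in ICN (26.7% of tested genes) and for 21 in CTdel (35.8%). Both con libraries lay above both ICN libraries for 18 members (19.6% of tested genes), and above both CTdel libraries for 20 (23.5%). A mean change below 0 was found for 39 members in ICN (49.9% of tested genes) and for 41 in CTdel (57.8%), and for 23 and 17 when con replicate 2 was left out. Both forms were compared with the same con libraries, so these counts are not separate evidence. FPKM cannot tell fewer cells that express a gene from less of its RNA in each cell, and a change in the total RNA per cell would not appear in them.

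No member passed the test. By limma with Benjamini-Hochberg adjustment over all tested genes, 0 of 43 had an adjusted p under 0.05 in ICN, where 0.0362% of tested genes passed, and the smallest adjusted p of a member was 0.295. In CTdel 0 of 43 passed, where 1.41% of tested genes did (1.3% as higher and 0.109% as lower), with a smallest adjusted p of 0.233. An unadjusted p under 0.05 was reached by 4 members in ICN (15.0% of tested genes) and by 3 in CTdel (11.8%), and these shares of 43 are below the background. The median standard error of a member's change was 0.26.

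**Figure D2:**
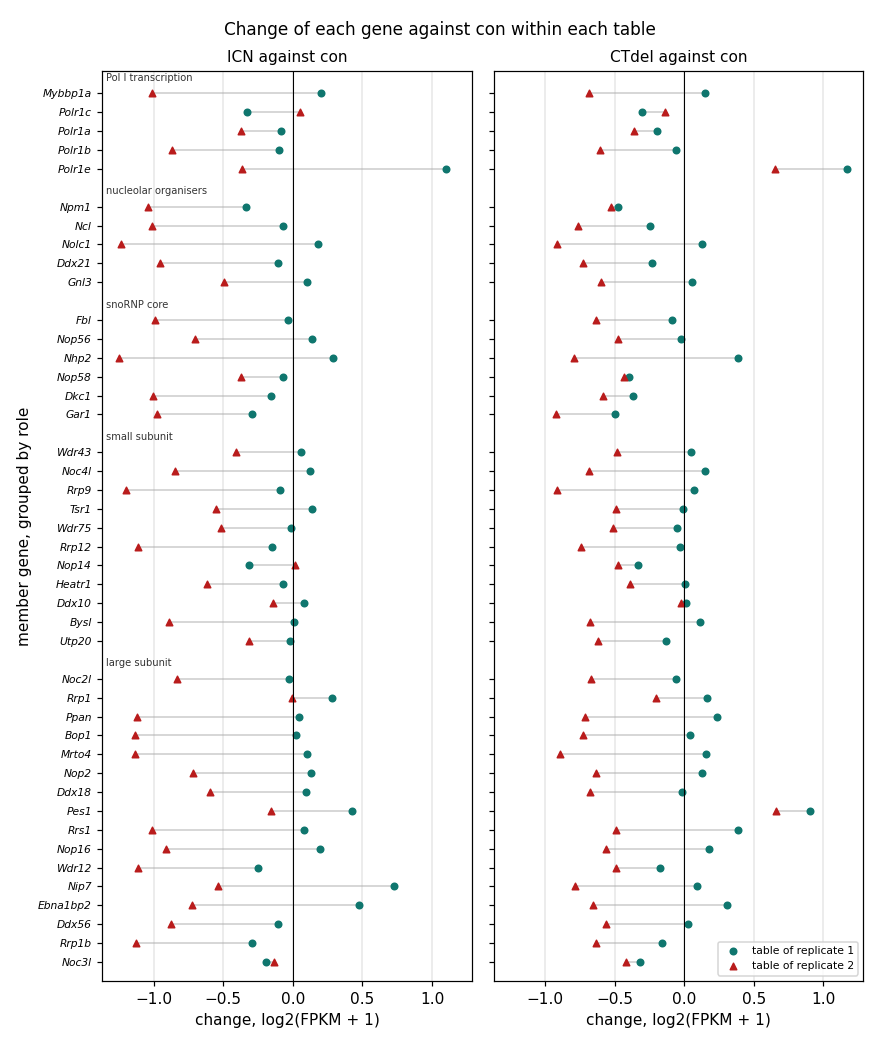
Change of each gene against con within each table, in log2(FPKM + 1), for ICN (left) and CTdel (right). Circles are replicate 1 and triangles replicate 2, joined by a grey line. Triangles lie left of 0 for 41 of 43 genes in each panel, circles for 21, and Polr1e and Pes1 lie right of 0 in both tables of CTdel.

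The replicates differed from each other in more than a single group. Con replicate 2 held higher values than con replicate 1 for 36 of 43 members, with a median log2 difference of 0.39, against 46.8% of all tested genes and a median of −0.03. ICN replicate 2 held lower values than ICN replicate 1 for 40 of 43, with a median of −0.37 against −0.03. CTdel replicate 2 was lower than its partner for 34 of 43, with a median of −0.13 against 0.02. These differences set levels side by side across tables that may have been scaled separately. In replicate 2 con was the highest of the 3 libraries for 39 members and ICN the lowest for 33, against 36.8% and 37.8% of tested genes. In replicate 1 con was the highest for 18 and the lowest for 19, shares near the 43.2% and 38.0% of tested genes.

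Removing con replicate 2 from the fit left the members' median change at −0.02 in ICN and 0.04 in CTdel. Removing con replicate 1 instead gave −0.81 and −0.66. Without ICN replicate 1 the ICN median was −0.68, and without ICN replicate 2 it was −0.15. Other features of the libraries differed in the same table. Genes above 0 were most numerous in ICN replicate 2. Red-cell markers (4 of 6 in both tables) summed to FPKM 634 in con replicate 2, 388 in ICN replicate 2 and 226 in CTdel replicate 2, against 137, 169 and 98.0 in replicate 1. The globin gene Hba-a1 made up most of that sum, the receptor Epor stayed between 2.57 and 4.06, and Hba-a2 was at 0 in CTdel replicate 2. The pro-B and interleukin-3 receptor markers summed to 354 in con replicate 2, the lowest of the 6 libraries, and to 633 in con replicate 1. They summed to 703 and 642 in ICN replicates 1 and 2 and to 628 and 500.3 in CTdel. Myeloid markers (6 of 7 in both tables) summed to 62.9 and 36.9 in con, 68.0 and 23.7 in ICN, and 75.3 and 56.8 in CTdel. Mast cell markers (2 of 5) summed to 26.7 and 6.14 in con and to 1.64 to 10.1 in the other 4 libraries. Stromal markers (4 of 6) summed to 40.3 to 63.2. Few genes made up most of these sums. They were Csf2rb, Csf2rb2, Ptprc and Il3ra for the pro-B and interleukin-3 receptor list, Adgre1 for the myeloid, Cpa3 for the mast cell and Pecam1 for the stromal. The sums therefore do not measure the cell types named. The part of the differences between libraries in the members' values was not tested.

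**Figure D3:**
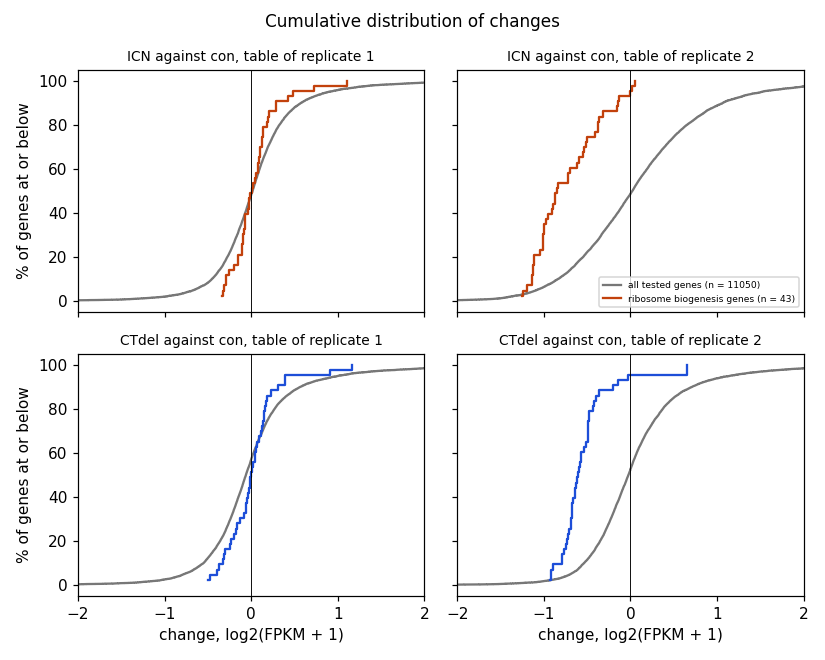
Cumulative share of genes by change against con, in log2(FPKM + 1), for ICN (top) and CTdel (bottom) in each table. Grey lines are all 11050 tested genes and coloured lines the 43 members, and the axis is drawn from −2 to 2. The lines cross near 0 in replicate 1, and in replicate 2 the coloured line lies left of the grey one, with medians of −0.85 and −0.61.

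Myc, which stands beside these genes because its protein is known to drive them, followed another pattern. Myc (chromosome 15, 61985341 to 61990361, GRCm38.p6) had FPKM 198 and 194 in con replicates 1 and 2, 113 and 89.9 in ICN, and 173 and 192 in CTdel. Both ICN libraries lay below the other 4, and the replicates of each group were close. Its change in ICN was −0.95 ± 0.21 (SE, n = 2, limma adjusted p = 0.18), with a 95% interval of −1.48 to −0.43. For CTdel it was −0.11 ± 0.21 (adjusted p = 0.907), with an interval of −0.63 to 0.42. CTdel against ICN gave 0.85 (adjusted p = 0.568). In replicate 1 of ICN Myc had a change of −0.80 while the members' median change was 0.01. In CTdel replicate 2 the change of Myc was −0.02 and the members' median −0.61. Both were lower in ICN replicate 2, Myc at −1.10 and the members' median at −0.85. In CTdel replicate 1 they were −0.20 and 0.00. The 6 members with CACGTG in the window shown above had a median change of −0.19 in ICN and the 32 with a window but no match −0.36. In CTdel these medians were −0.25 and −0.31. The 5 members without a window, for which the motif is unknown, had medians of −0.56 in ICN and −0.36 in CTdel. A part of Myc in the members' changes was not tested.

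**Figure D4:**
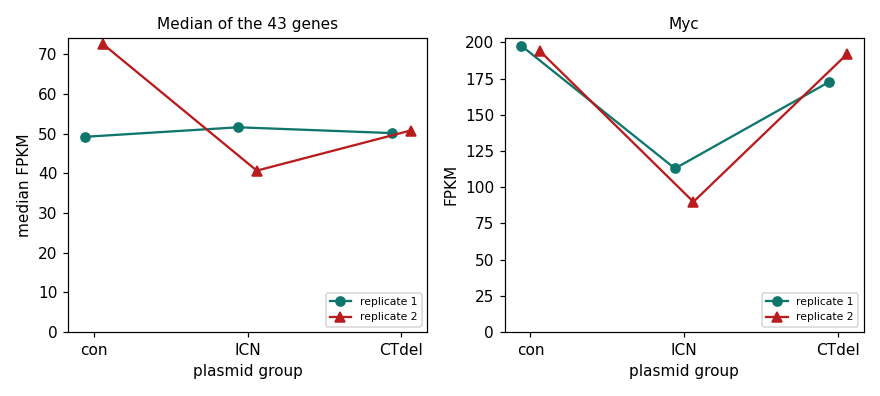
Median FPKM of the 43 genes (left) and FPKM of Myc (right) in con, ICN and CTdel, on axes from 0. Circles are replicate 1 and triangles replicate 2, and lines join the libraries of a table. The median is flat in replicate 1 and highest in con in replicate 2, and Myc is lowest in ICN in both.

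The first step of the pathway is transcription by RNA polymerase I, for which 5 members stand. Polr1a and Polr1b encode its 2 largest subunits, Polr1c a subunit shared with polymerase III, Polr1e a subunit of its initiation and elongation module, and Mybbp1a a nucleolar regulator. Mybbp1a, the highest of them in con, had FPKM 132 and 243 in con, 152 and 120.3 in ICN, and 146 and 151 in CTdel. Con replicate 1 lay among the libraries with Notch1 and con replicate 2 far above all of them, and its changes were −0.40 and −0.27 (adjusted p = 0.56 and 0.835). For Polr1b (chromosome 2, 129100970 to 129128060) the con libraries gave 23.3 and 32.1, ICN 21.7 and 17.1, and CTdel 22.3 and 20.8. All 4 values with a form of Notch1 were below both con values, the change in ICN was −0.48 ± 0.25 (SE, adjusted p = 0.405) and that in CTdel −0.33.

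Polr1e (chromosome 4, 45018609 to 45034279) went against the group. It had FPKM 7.85 and 13.8 in con, 18 and 10.5 in ICN, and 18.9 and 22.2 in CTdel. Both CTdel libraries lay above both con libraries, whereas ICN had 1 library above and 1 between them. The change was 0.91 ± 0.36 in CTdel (SE, n = 2, limma adjusted p = 0.415, 95% interval 0.02 to 1.80) and 0.37 in ICN (adjusted p = 0.633). Fitted by limma with the con and CTdel libraries alone, the adjusted p was 0.0391. That fit rests on 1 residual degree of freedom and called 572 tested genes as higher and 158 as lower. The fit to all 6 libraries called 144 and 12.

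Of the nucleolar organisers, Npm1 and Ncl (nucleolin) are chaperone-like proteins of the nucleolus, Nolc1 carries snoRNPs, Gnl3 (nucleostemin) is a GTP-binding protein of stem and tumour cells, and Ddx21 is an RNA helicase. All 5 had a mean change below 0 with either form, against 49.9% of tested genes in ICN and 57.8% in CTdel. In replicate 1 alone, 3 of the 5 were below con with either form, against 48.0% and 57.0% of tested genes. Npm1 (chromosome 11, 33152498 to 33164142) had FPKM 2056 and 1669.7 in con, 1627 and 811 in ICN, and 1476 and 1156 in CTdel. Both con libraries were above the other 4, with a change of −0.69 ± 0.24 in ICN (SE, n = 2, limma adjusted p = 0.295) and of −0.50 ± 0.24 in CTdel (adjusted p = 0.528). In CTdel the changes of Npm1 were alike in both tables, −0.48 and −0.53, while in ICN they were −0.34 and −1.04. Npm1 with CTdel differed from Npm1 with ICN by 0.19 (95% interval −0.41 to 0.78).

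Ncl (chromosome 1, 86344719 to 86359455) gave 231 and 262 with con, 220.4 and 129 with ICN, and 194 and 154 with CTdel, so con was above the other 4 here too. The changes of Ncl were −0.54 with ICN and −0.51 with CTdel (adjusted p = 0.396 and 0.59). Gnl3 had the change nearest 0 of the 5 with either form, −0.20 in ICN and −0.27 in CTdel. Its FPKM was 96.4 and 93.5 in con, 104 and 66.0 in ICN and 100.1 and 61.5 in CTdel. In replicate 1 both forms had slightly more Gnl3 than con, and in replicate 2 both had less.

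The snoRNP proteins fall into 2 classes. Fbl (fibrillarin, the methyltransferase), Nop56 and Nop58 form the C/D particles, and Dkc1 (dyskerin, the pseudouridine synthase), Nhp2 and Gar1 belong to the H/ACA particles. All 6 had a mean change below 0 with either form, against 49.9% of tested genes in ICN and 57.8% in CTdel. The medians were −0.50 in ICN and −0.39 in CTdel. In replicate 1 alone, 4 of the 6 were below con in ICN and 5 in CTdel, against 48.0% and 57.0% of tested genes. Gar1 (chromosome 3, 129824912 to 129831407) had the lowest changes of the 6: its FPKM was 69.0 and 81.0 with con, 56.2 and 40.7 with ICN, and 48.7 and 42.2 with CTdel. Both con libraries lay above the other 4. The change was −0.63 ± 0.24 in ICN (SE, n = 2, limma adjusted p = 0.317) and −0.71 ± 0.24 in CTdel (adjusted p = 0.315), the lowest change among the 43 members in CTdel. It was below 0 in replicate 1 as well, at −0.29 in ICN and −0.50 in CTdel.

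Nhp2, which works beside Gar1 in the same particles, showed the widest gap between the tables. Its FPKM was 111 and 227 in con, 136 and 95.1 in ICN, and 145 and 130.4 in CTdel. In replicate 1 con was the lowest library (changes of 0.29 in ICN and 0.39 in CTdel) and in replicate 2 the highest (−1.25 and −0.80). Fbl had 184 and 251 in con, 179 and 126 in ICN, and 173 and 161 in CTdel, with changes of −0.51 and −0.36 (adjusted p = 0.416 and 0.709). Nop58, with FPKM 175 and 159 for con, 167 and 123 for ICN, and 133 and 117 for CTdel, had its lower values in CTdel in both tables (−0.40 and −0.43). In ICN its changes were −0.07 and −0.37.

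The small subunit is prepared by 11 members. Heatr1, Utp20, Wdr43, Wdr75, Rrp9, Nop14 and Noc4l act in the small-subunit processome, the early particle on the precursor RNA. Rrp12, Bysl and Tsr1 act on later small-subunit particles, and Ddx10 is an RNA helicase. Their changes had a median of −0.27 in ICN and −0.28 in CTdel. A mean below 0 was found for 11 of 11 with either form, against 49.9% of tested genes in ICN and 57.8% in CTdel. In replicate 1 alone, 6 of 11 were below con in ICN and 5 of 11 in CTdel, against 48.0% and 57.0% of tested genes. Wdr43, the highest in con, had 68.3 and 79.2 in con, 71.2 and 59.4 in ICN, and 70.7 and 56.3 in CTdel. In replicate 1 the 3 plasmid groups were nearly equal, and in replicate 2 con was the highest.

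Rrp9 (chromosome 9, 106477309 to 106485415), which binds the U3 RNA, had FPKM 37.5 and 69.9 in con, 35.1 and 29.9 in ICN, and 39.4 and 36.6 in CTdel. A single library, con replicate 2, stood well above the other 5. Its change in ICN was −0.65 ± 0.32 (SE, adjusted p = 0.39) and in CTdel −0.42. Ddx10 had the change nearest 0 with either form, −0.035 in ICN and −0.0082 in CTdel. Its FPKM was 30.6 and 23.8 with con, 32.3 and 21.4 with ICN, and 30.8 and 23.4 with CTdel, and here the spread lay between tables, not plasmids.

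The large subunit is prepared by 16 members, among them Pes1, Bop1 and Wdr12, which form 1 complex (PeBoW) needed to process its RNA. Nop2 is a methyltransferase of that RNA, Ddx18 and Ddx56 are helicases, and Noc2l, Noc3l, Nip7, Mrto4, Rrs1, Ebna1bp2, Ppan, Nop16, Rrp1 and Rrp1b are assembly factors. Their median change was 0.09 in replicate 1 of ICN and −0.85 in replicate 2. In CTdel it was 0.11 and −0.63. Noc2l, the highest of the 16 in con, had 109 and 174 in con, 107 and 97.5 in ICN, and 105 and 109 in CTdel, with changes of −0.43 and −0.37.

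Pes1 (chromosome 11, 3963975 to 3980004) parted from its partners in the complex. It had FPKM 61.3 and 68.3 in con, 82.5 and 61.0 in ICN, and 116 and 108 in CTdel. Both CTdel libraries lay above the other 4 libraries. The change in CTdel was 0.78 ± 0.23 (SE, n = 2, limma adjusted p = 0.233, 95% interval 0.23 to 1.34), above 0 in both tables. In ICN it was 0.13 (adjusted p = 0.796), and CTdel against ICN gave 0.65 (adjusted p = 0.663). Fitted by limma with the con and CTdel libraries alone, its adjusted p in CTdel was 0.0443, with the limit given for Polr1e. Polr1e and Pes1 were the only members above 0 in both tables of CTdel, where 26.2% of tested genes were. In ICN 0 members were, against 29.8%, and 0 had both ICN libraries above both con libraries, against 22.7%. With CTdel these 2 were also the members whose groups did not overlap on the higher side (18.3% of tested genes).

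Bop1, the PeBoW partner that anchors the complex, had 49.2 and 104 in con, 49.97 and 46.6 in ICN, and 50.5 and 62.1 in CTdel, so con replicate 2 stood alone. Wdr12 had 40.4 and 40.7 in con, 33.8 and 18.2 in ICN, and 35.6 and 28.7 in CTdel, with both con libraries above the others. The change of Wdr12 was −0.68 ± 0.26 in ICN (SE, limma adjusted p = 0.322) and −0.33 in CTdel, and that of Bop1 −0.56 (adjusted p = 0.427) and −0.35. Bop1 and Wdr12 were picked as partners of Pes1 after their values were seen.

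Rrp1b and Rrp1, paralogous nucleolar proteins of large-subunit assembly, had the lowest and the highest change of these 16 in ICN. Rrp1b (chromosome 17, 32036162 to 32062865) had 27.0 and 34.9 in con, 21.9 and 15.4 in ICN, and 24.0 and 22.1 in CTdel, and its change of −0.71 ± 0.26 in ICN (SE, n = 2, limma adjusted p = 0.309) was the lowest of the 43. Rrp1 had 94.1 and 120.6 in con, 115 and 120.3 in ICN, and 106 and 105 in CTdel. With ICN its change was 0.14 (adjusted p = 0.759) and with CTdel −0.02. In CTdel the change of Rrp1b was −0.40 (adjusted p = 0.664).

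Set directly against each other, CTdel and ICN gave no call among the members: 0 of 43 passed, where 0.0181% of tested genes did, and 1 member, Pes1, had an unadjusted p under 0.05 (7.13% of tested genes). A mean change below 0 was found for 15 members, against 54.7% of tested genes. The median change of CTdel against ICN was 0.09, from −0.03 in replicate 1 and 0.23 in replicate 2, and −0.04 over all tested genes. It turned with the ICN library used: 0.37 without ICN replicate 1 and −0.18 without ICN replicate 2. In replicate 2, 10 of 43 members were lower in CTdel than in ICN, against 50.2% of tested genes, and in replicate 1, 25 were, against 63.7%. Notch1 itself stood at FPKM 190.0 and 888 with ICN and at 84.9 and 25.4 with CTdel. The form of Notch1 and its level therefore cannot be told apart in this comparison.

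Other genes of the pathway, 134 in all, were listed by their known roles: further subunits and factors of RNA polymerase I, snoRNP assembly factors, subunit assembly factors and the exosome that trims precursor RNA. None of the 134 passed in a comparison. Their median change was −0.19 in ICN (0.02 in replicate 1 and −0.40 in replicate 2) and −0.22 in CTdel (−0.08 and −0.43). A mean change below 0 was found for 97 in ICN and 124 in CTdel, against 49.9% and 57.8% of tested genes. In CTdel against ICN their median was −0.05, near the −0.04 of all tested genes. That of the members was 0.09, and it changed sign with the ICN library left out (0.37 and −0.18). Of the 134 genes, 82 were below 0, against 54.7% of tested genes. As among the members, con replicate 2 stood above con replicate 1 for most of them, 101 of 134 against 46.8% of tested genes, with a median difference of 0.29.

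By subset, the ICN median was lowest for the 10 further snoRNP factors (−0.47) and nearest 0 for the 16 further polymerase I genes (−0.02). Ruvbl2, an ATPase that helps assemble snoRNPs among other complexes, had the lowest change with either form. It stood at −0.77 ± 0.24 in ICN (SE, limma adjusted p = 0.269), and at −0.69 ± 0.24 with CTdel (adjusted p = 0.347). With either form it was below 0 in both replicates. Rrp36, a small-subunit factor, had the highest change in ICN, 0.76 (adjusted p = 0.332), and the lowest in CTdel against ICN, −0.80 (adjusted p = 0.688). The helicase Ddx24 had the highest change in CTdel, 0.34 (adjusted p = 0.667), and Tbl3, of the processome, the highest in CTdel against ICN, 0.37 (adjusted p = 0.791).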

How the data were processed

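The authors deposited FPKM per gene, 1 table per replicate number with a column per plasmid group, per the file headers. Alignment and quantification tools listed in the submitters' processing notes are RSEM, HISAT2 and Bowtie2. Those notes list mm10 and also hg19, without saying what each was used for. Tables were joined on gene ID (17877 and 17868 genes). RefSeq tables (GRCm38.p6) gave coordinates and promoters. For each of the 11050 genes that reached FPKM 1 in 2 or more libraries, log2(FPKM + 1) was tested 2-sided by limma 3.58.1 (R 4.3.3, trend on the mean level), with Benjamini-Hochberg adjustment over them all. The model had terms for group and table and was fitted to all 6 libraries, leaving 2 residual degrees of freedom beside a prior of 3.82. The table was kept as a block because the tables were deposited separately. The code was tested on simulated data. Alternatives were another pseudocount, no filter on low values, other scalings, no trend, no block, fits to the groups compared alone and each library left out. Depth was compared through the lowest nonzero FPKM of small RNA genes at 25 lengths. In each library 11 or more lengths lay within 2% of the median ratio. Read totals are unknown, so no detection limits are given. Members, lists and tests were chosen with earlier results of these data known. Genes with values were Myc, Notch1, called members, and per role the highest in con and the lowest and highest change with each form, with those opposite to the median in both tables, and the extremes of the other pathway genes.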

Additional observations from a re-analysis of the deposited data

How the results depend on the processing

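With no replicate block the members' medians were −0.36 in ICN and −0.28 in CTdel, 0 members passed and genes called numbered 3 and 130 in place of 4 and 156. Deviations of same-numbered libraries correlated at −0.0988 (con and ICN), 0.326 (con and CTdel) and 0.236 (ICN and CTdel), so the data do not show that the numbers pair the samples. Without a filter on low values 0 genes were called in ICN, CTdel and CTdel against ICN (2328, 1592 and 1386 at an unadjusted p under 0.05), and with a pseudocount of 0.1 0 were called in CTdel against ICN. Fitted with the 2 groups compared alone, 162 genes were called in ICN and 730 in CTdel, with 2 members, Polr1e and Pes1. Those 2 of 43 are a smaller share than the 730 of 11050 tested genes. Such fits rest on 1 residual degree of freedom among 4 libraries. With each library left out, which assumes that a lone library varies like the other groups, genes called ran from 11 to 1470 in ICN, 109 to 731 in CTdel and 2 to 891 in CTdel against ICN. Members called ran from 0 to 4 (Npm1, Dkc1, Wdr12 and Rrp1b without ICN replicate 1), 0 to 2 (Polr1e and Pes1 without either ICN library) and 0 to 1 (Polr1e). The members' median ran from −0.81 to −0.02, −0.66 to 0.04 and −0.18 to 0.37. Without con replicate 2, members with a change below 0 numbered 23 in place of 39 in ICN and 17 in place of 41 in CTdel, so many more members turned than are listed here. Leave-one-out ranges were computed for the genes named with values only. Among these, changes that crossed 0 were, in ICN, those of Ddx10 (−0.14 to 0.067), Gnl3 (−0.51 to 0.11), Mybbp1a (−0.92 to 0.11), Nhp2 (−1.16 to 0.20), Pes1 (−0.10 to 0.36), Polr1e (−0.24 to 0.97), Rrp1 (−0.024 to 0.30) and Wdr43 (−0.43 to 0.075). In CTdel they were, among the same genes, those of Ddx10 (−0.073 to 0.057), Fbl (−0.74 to 0.015), Gnl3 (−0.58 to 0.041), Mybbp1a (−0.78 to 0.24), Myc (−0.27 to 0.059), Nhp2 (−0.88 to 0.48), Rrp1 (−0.18 to 0.14), Rrp9 (−0.95 to 0.10), Wdr43 (−0.47 to 0.031) and Bop1 (−0.83 to 0.13). In CTdel against ICN, computed for Myc, Npm1, Pes1 and Polr1e, they were Npm1 (−0.15 to 0.52, and −0.043 with quantile normalization) and Polr1e (−0.064 to 1.14). The cause was not tested.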

Other observations

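Some members carry small nucleolar RNA genes within their introns, and 8 such genes, matched by coordinates, were in both tables. Most rest on few reads, so they are given as values only, and the 2 highest were picked after their values were seen. Snord69, inside Gnl3, had FPKM 18.6 and 19.4 in con replicates 1 and 2, 65.1 and 11.9 in ICN, and 30.0 and 30.9 in CTdel. At its length of 59 bases the lowest nonzero value of a library was 2.16 to 4.41. Snord57, inside Nop56, had 3.94 and 12.8 in con, 36.9 and 6.08 in ICN, and 35.2 and 30.0 in CTdel, where the lowest nonzero value at its 63 bases was 1.83 to 3.94. Both were higher in CTdel than in con in each replicate, and in ICN higher in replicate 1 and lower in replicate 2. The host genes had the same signs in ICN, with changes in replicates 1 and 2 of 0.10 and −0.50 for Gnl3 and 0.14 and −0.70 for Nop56. In CTdel they were 0.05 and −0.60 for Gnl3 and −0.02 and −0.48 for Nop56. Both hosts had mean changes below 0 with either form. The libraries were made with an mRNA kit.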
